A study of Homo sapiens with 33 samples.

Results

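A set of 9 genes that are regulated by peroxisome proliferator-activated receptors (PPARs) or that carry fatty acids through oxidation were followed in HT29 cells, a human colorectal adenocarcinoma line, 24 h after treatment with extracts of 4 herbal formulas. The genes are FABP1, ACSL5, CPT1A, ACADVL, HADHA, CYP4F3, PLIN2, ANGPTL4 and PDK4, and they were found by matching their symbols to the Ensembl identifiers of the deposited count table, 9 of its 60675 genes. Of these, 8 passed the filter on low counts and were tested. ANGPTL4 did not pass it, with 0 to 10 counts in any library, and its values are described without a test.

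The extracts were made with 70% ethanol from the formulas Sagunja-tang and Samul-tang and from Palmul-tang and Sibjeondaebo-tang, which build on them. Palmul-tang joins the herbs of Sagunja-tang and Samul-tang, and Sibjeondaebo-tang is Palmul-tang with added herbs. Each was given at 20, 100 and 500 µg/mL, called the low, medium and high dose here, and the vehicle cells received DMSO, 0.1% by the sample labels. There were 3 libraries at each dose of Palmul-tang and Sibjeondaebo-tang, 2 at each dose of Sagunja-tang and Samul-tang (replicates 2 and 3 only), and 3 of vehicle, 33 in all. The labels do not state that the replicates were separate cultures, so the spread behind each p-value is that between libraries and may be technical.

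PPARs are nuclear receptors that bind fatty acids and related ligands. They pair with a retinoid X receptor (RXR) on DNA and raise the transcription of genes for fatty acid uptake, transport into mitochondria, oxidation and storage. In intestinal epithelium, where dietary fat enters the body, PPAR ligands are known to raise binding proteins, carnitine-shuttle and oxidation genes.

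Among these genes, FABP1 has a PPAR response element described in its rat orthologue, so the RefSeq promoters were searched for that type of element. FABP1 encodes a cytosolic protein that binds long-chain fatty acids and carries ligands to PPAR alpha (ENSG00000163586, chromosome 2, 88122982 to 88128116, minus strand). The stretch below ends just before the first annotated start of the gene, covers chr2:88128117-88128312 of GRCh38.p14 on the minus strand, and lies 250 to 55 bases before the RefSeq start. It is shown because FABP1 had the highest fold change against vehicle of the 8 genes tested, and capitals mark its closest match to the motif AGGTCANAGGTCA.
FABP1 upstream sequence: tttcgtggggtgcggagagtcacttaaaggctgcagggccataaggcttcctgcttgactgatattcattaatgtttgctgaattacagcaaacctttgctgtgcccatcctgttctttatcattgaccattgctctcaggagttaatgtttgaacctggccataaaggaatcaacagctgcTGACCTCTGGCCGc
The match reads TGACCTCTGGCCG at chr2:88128118-88128130, and against the motif's other strand, TGACCTNTGACCT, it has 10 of 12 fixed letters. The differences are A10G and T13G, with positions counted from 1 at the 5′ end of that strand of the motif. Of all 35116 RefSeq promoter windows (300 bases, both strands searched), 2.97% held the motif with at most 2 mismatches, and 13.8% held an exact AGGTCA on either strand, which also lies inside the longer motif. All 9 genes had a promoter in the table, 11 windows in all. Only FABP1 held the longer motif at that tolerance, and FABP1 and ACSL5 held AGGTCA. A match is a description of letters and not a bound site. Each window runs from 250 bases before the start to 50 after it, and no sequence outside was searched. A missing match therefore says nothing about elements elsewhere in or near a gene.

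Total counts ran from 28.6 to 49.1 M (mega, 1000 times 1000 counts) in libraries of extracts and from 31.1 to 35.6 M in those of vehicle. Levels are given below as CPM, counts per M of the library's total, after TMM scaling, and changes as log2 fold changes ± SE. A gene was called at a Benjamini-Hochberg adjusted p under 0.05 over all 17432 genes tested with edgeR. The 13 protein-coding mitochondrial genes took 4.65 to 7.53% of counts with extracts and 7.43 to 9.80% in vehicle, and their part in the results was tested only by scaling without them. The 2 libraries of high-dose Sagunja-tang differed more than any other pair of replicates, with a chi-square per degree of freedom of 26.8, the highest of 27 pairs, and replicate 2 held less of the long genes than replicate 3 (Spearman -0.25 across 17312 genes, which are not independent). All 12 comparisons with vehicle share the same 3 vehicle libraries, whose sample codes begin differently from those of the extracts, although each title names batch E. What those codes mean is not given in the labels, so code and treatment cannot be told apart in any comparison with vehicle. The comparisons of high with low dose, of Samul-tang with Sagunja-tang and of Sibjeondaebo-tang with Palmul-tang stay within 1 type of code. Those of high-dose Palmul-tang with high-dose Sagunja-tang or Samul-tang do not.

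The label of the cells fitted their markers. All 12 markers of colon epithelium passed the filter, with a summed level of 11975 to 14554 CPM with extracts and 12668 to 13140 CPM in vehicle. Most of that sum was KRT8 and KRT18, at 6578 and 3773 CPM in vehicle. CDX1, CDX2, CDH17 and GPA33 were low, at 1.04, 5.92, 5.08 and 3.57 CPM in vehicle, and the rest stood between 171 (VIL1) and 554 CPM (EPCAM). Of the markers of other cell types, 2 of 8 for hepatocytes passed (289 to 401 CPM summed with extracts and 447 to 494 CPM in vehicle, nearly all SERPINA1, with ALB, APOA2 and TF at 0 in vehicle), 2 of 8 for adipocytes (1.04 to 1.88 and 0.968 to 1.24 CPM, with ADIPOQ, LPL, CIDEA and RETN at 0 in all libraries), 2 of 7 for fibroblasts (1.70 to 2.76 and 1.88 to 2.24 CPM), 3 of 6 for leukocytes (1372 to 1825 and 1377 to 1439 CPM, nearly all LYZ, with PTPRC and CD3E at 0 in vehicle) and 1 of 4 for endothelium (1.13 to 2.07 and 1.70 to 1.97 CPM, with KDR at 0 in all libraries).

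In vehicle the genes spanned a wide range of levels. Per kilobase of exon, ACSL5 stood at 64.0 CPM, HADHA at 38.5, ACADVL at 29.7 and CPT1A at 14.5, while PDK4 stood at 1.37, PLIN2 at 1.21, FABP1 at 0.617, CYP4F3 at 0.266 and ANGPTL4 at 0.0340. ACSL5, HADHA, ACADVL and CPT1A were thus the abundant transcripts and the other 5 the scarce ones, with PDK4 and PLIN2 as neighbours whose vehicle levels did not separate beyond their spread. Exon length is the union over all annotated transcripts, so a gene with unused exons is understated.

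At the high dose against vehicle, most of these genes rose. FABP1, CPT1A, ACADVL, CYP4F3, PLIN2 and PDK4 rose with each of the 4 formulas, ACSL5 with all but Sagunja-tang, and HADHA was called with Sibjeondaebo-tang alone. The count of genes called higher was 6 of 8 for Sagunja-tang, where 18.7% of all genes tested were called higher, and 7 of 8 for Samul-tang (15% of all genes). It was 7 of 8 for Palmul-tang (17.3%) and 8 of 8 for Sibjeondaebo-tang (20.5%), and none of the 8 was called lower. The median log2 fold change of the 8 genes was 0.40 for Sagunja-tang, 0.54 for Samul-tang, 0.52 for Palmul-tang and 0.55 for Sibjeondaebo-tang, while that of all genes tested was -0.01, -0.00, -0.01 and -0.02 in the same order. The count for Sagunja-tang was 3 when only its own 2 libraries and the 3 of vehicle entered the fit, and 5 without replicate 2 of that group.

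**Figure D1:**
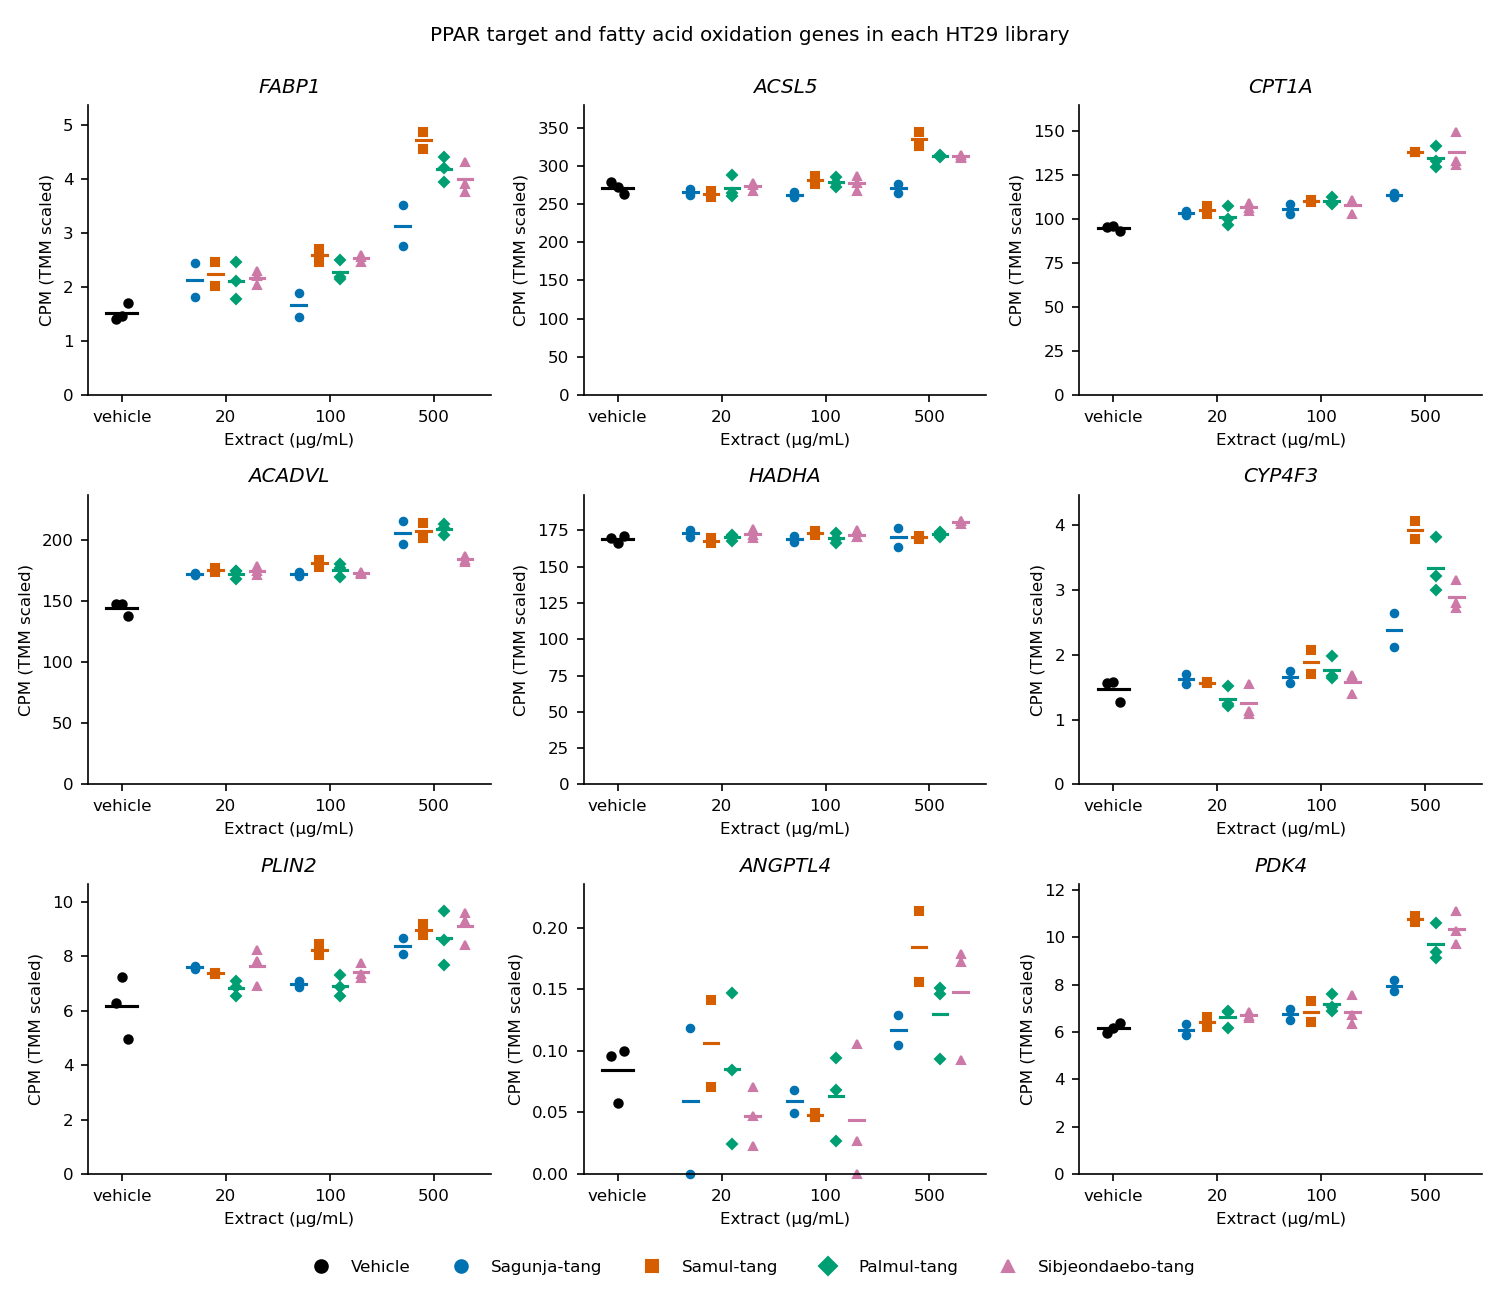
Level of each of the 9 genes (CPM after TMM scaling, y axis from 0) in every library, by dose of extract (x axis, vehicle at the left). Points are libraries and short lines are group means. FABP1, CYP4F3 and PDK4 stand highest at 500 µg/mL, ACADVL is above vehicle at every dose, and HADHA is nearly level.

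FABP1 had the highest fold change of the 8 genes at the high dose of each formula. With high-dose Samul-tang it was at 4.57 and 4.88 CPM, with Palmul-tang at 4.41, 3.94 and 4.21, with Sibjeondaebo-tang at 3.91, 4.31 and 3.77, and with Sagunja-tang at 3.51 and 2.75, against 1.40, 1.47 and 1.70 CPM in vehicle. Every high-dose library lay above every vehicle library. The rise was 3.11-fold for Samul-tang (log2 1.64 ± 0.14, adjusted p = 3.76e-09), 2.75-fold for Palmul-tang (1.46 ± 0.14, adjusted p = 7.14e-09), 2.63-fold for Sibjeondaebo-tang (1.39 ± 0.14, adjusted p = 1.4e-08) and 2.05-fold for Sagunja-tang (1.03 ± 0.16, adjusted p = 1.62e-05). FABP1 is a low-count gene here, with 105 to 228 counts in the high-dose libraries and 44 to 51 in those of vehicle. In bulk RNA a higher level in each cell and a larger share of cells with the transcript cannot be told apart.

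At the lower doses FABP1 was nearer to vehicle. The group means at the low dose were 2.12 ± 0.446 CPM for Sagunja-tang, 2.23 ± 0.315 for Samul-tang, 2.11 ± 0.342 for Palmul-tang and 2.17 ± 0.132 for Sibjeondaebo-tang (SD; n = 2, 2, 3 and 3), against 1.52 ± 0.159 CPM in vehicle (n = 3). All 4 were called higher, by log2 0.48 to 0.56 with adjusted p of 0.0127 to 0.0323. These calls were not stable: without vehicle replicate 2 the adjusted p of the 4 lay between 0.0509 and 0.0918, and without vehicle replicate 1 it was 0.0893 for Sagunja-tang and 0.0758 for Palmul-tang. Without its own low-dose replicate 2 the difference with Sagunja-tang was 0.26 (adjusted p = 0.469). Without low-dose replicate 3 of Samul-tang the adjusted p was 0.216, and without low-dose replicate 2 of Palmul-tang 0.161. At the medium dose the means were 1.66 ± 0.316 CPM for Sagunja-tang, 2.59 ± 0.176 for Samul-tang, 2.28 ± 0.187 for Palmul-tang and 2.54 ± 0.0609 for Sibjeondaebo-tang, and Sagunja-tang alone was not called (0.12 ± 0.17, adjusted p = 0.677). The order of the group means thus put the 4 high-dose groups at the top and vehicle at the bottom, and the low- and medium-dose groups between them overlapped one another.

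ACSL5 encodes an acyl-CoA synthetase that activates fatty acids and is abundant in intestinal epithelium (ENSG00000197142, chromosome 10, 112374018 to 112428380). With high-dose Samul-tang it was at 326 and 345 CPM, with Palmul-tang at 313, 314 and 312, and with Sibjeondaebo-tang at 315, 312 and 311, against 278, 272 and 264 CPM in vehicle. Those 3 groups lay above vehicle without overlap, and the changes were 0.31 ± 0.04 (adjusted p = 2.7e-06), 0.21 ± 0.04 (adjusted p = 8.55e-05) and 0.20 ± 0.04 (adjusted p = 5.79e-05). With high-dose Sagunja-tang ACSL5 was at 265 and 277 CPM, inside the range of vehicle, and the 95% interval of the log2 difference ran from -0.09 to 0.08 (adjusted p = 0.975). At the low and medium doses of every formula its log2 difference from vehicle lay between -0.05 and 0.05 and was not called.

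CPT1A encodes the outer-membrane carnitine palmitoyltransferase that controls the entry of long-chain fatty acids into mitochondria (ENSG00000110090, chromosome 11, 68754620 to 68844410). It stood at 138 and 138 CPM with high-dose Samul-tang, at 133, 129 and 142 with Palmul-tang, at 133, 150 and 131 with Sibjeondaebo-tang and at 112 and 114 with Sagunja-tang, against 95.3, 96.0 and 93.4 CPM in vehicle. The rise was 1.46-fold with Samul-tang (0.54 ± 0.05, adjusted p = 6.28e-09), 1.42-fold with Palmul-tang (adjusted p = 3.55e-09), 1.45-fold with Sibjeondaebo-tang (adjusted p = 7.88e-10) and 1.20-fold with Sagunja-tang (0.26 ± 0.05, adjusted p = 0.000223). CPT1A was also called at the medium dose of all 4 formulas, by 0.16 to 0.21. At the low dose it was called for Samul-tang (0.15 ± 0.05, adjusted p = 0.044) and Sibjeondaebo-tang (0.17 ± 0.05, adjusted p = 0.00925). The Samul-tang call was lost when any 1 of its own or the vehicle libraries was left out, with adjusted p of 0.0646 to 0.258, and the Sagunja-tang call at the medium dose was lost without vehicle replicate 3 (adjusted p = 0.099), without vehicle replicate 2 (adjusted p = 0.056) or without its own replicate 2 (adjusted p = 0.295). The Samul-tang call at the medium dose was lost without its own replicate 2 (adjusted p = 0.0622).

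ACADVL and HADHA act inside the mitochondrion and behaved differently from each other. ACADVL encodes the very-long-chain acyl-CoA dehydrogenase that catalyses the opening step of beta oxidation (ENSG00000072778, chromosome 17, 7217125 to 7225273). It was at 216 and 197 CPM with high-dose Sagunja-tang, at 214 and 202 with Samul-tang, at 214, 205 and 211 with Palmul-tang and at 183, 188 and 184 with Sibjeondaebo-tang, against 148, 148 and 138 CPM in vehicle. The rise was 1.43-, 1.44-, 1.45- and 1.28-fold for these formulas, with adjusted p of 8.52e-10, 1.34e-10, 9.06e-12 and 1.76e-08. Unlike FABP1, ACADVL was already clearly above vehicle at the low dose, at 173 ± 1.55 CPM for Sagunja-tang, 176 ± 2.60 for Samul-tang, 173 ± 3.67 for Palmul-tang and 175 ± 3.55 for Sibjeondaebo-tang (SD), against 145 ± 5.56 CPM in vehicle. These low-dose changes of 0.26 to 0.28 had adjusted p between 6.8e-06 and 9.13e-05, and ACADVL was the only one of the 8 genes called in all 12 comparisons with vehicle. Each of those 12 calls also held with every single library left out.

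HADHA encodes the alpha subunit of the mitochondrial trifunctional protein, which carries out later steps of long-chain beta oxidation (ENSG00000084754, chromosome 2, 26190635 to 26244726). It stood at 181, 181 and 180 CPM with high-dose Sibjeondaebo-tang, against 170, 166 and 171 CPM in vehicle, a change of 0.10 ± 0.03 (adjusted p = 0.00806). That call was lost when genes of low count were kept in the test (adjusted p = 0.087). With the other 3 formulas at the high dose its group means were 170 ± 9.36, 170 ± 1.70 and 172 ± 1.78 CPM for Sagunja-tang, Samul-tang and Palmul-tang, against 169 ± 2.40 CPM in vehicle, and the 95% intervals of the log2 differences lay within -0.06 and 0.09.

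CYP4F3 encodes a cytochrome P450 that omega-hydroxylates leukotriene B4 and long-chain fatty acids (ENSG00000186529, chromosome 19, 15640897 to 15662825). It was at 3.79 and 4.07 CPM with high-dose Samul-tang, at 3.82, 3.22 and 3.00 with Palmul-tang, at 2.80, 2.73 and 3.15 with Sibjeondaebo-tang and at 2.64 and 2.12 with Sagunja-tang, against 1.56, 1.58 and 1.27 CPM in vehicle. The rise was 2.66-fold (1.41 ± 0.15, adjusted p = 1.3e-07), 2.27-fold (1.18 ± 0.14, adjusted p = 6.16e-07), 1.96-fold (0.97 ± 0.14, adjusted p = 6.76e-06) and 1.61-fold (0.68 ± 0.17, adjusted p = 0.00193) in that order. For Sagunja-tang the call rested on replicate 2, with an adjusted p of 0.0769 without it. At the low and medium doses CYP4F3 was not called with any formula, and its low-dose differences lay between -0.23 and 0.14.

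CYP4F3 has close paralogs, and reads may be shared among them. CYP4F2, the closest of them, was nearly silent at 0 to 5 counts in the libraries of vehicle and of the high doses and was not tested. CYP4F12 was at 6.22 ± 0.198 CPM with high-dose Samul-tang, 5.38 ± 0.0394 with Palmul-tang, 4.42 ± 0.0614 with Sibjeondaebo-tang and 4.31 ± 0.356 with Sagunja-tang (SD), against 3.32 ± 0.414 CPM in vehicle. CYP4F11 was at 2.32 ± 0.165, 2.04 ± 0.310, 2.15 ± 0.343 and 1.71 ± 0.365 CPM in the same groups, against 1.11 ± 0.0474 CPM in vehicle. Both paralogs, which are omega-hydroxylases as well, were called higher at the high dose of all 4 formulas.

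PLIN2 encodes the perilipin that coats lipid droplets in most cells (ENSG00000147872, chromosome 9, 19108375 to 19149290). It stood at 8.66 and 8.08 CPM with high-dose Sagunja-tang, at 9.18 and 8.77 with Samul-tang, at 9.68, 8.62 and 7.70 with Palmul-tang and at 8.43, 9.61 and 9.31 with Sibjeondaebo-tang, against 6.30, 7.24 and 4.98 CPM in vehicle. All high-dose libraries lay above all vehicle libraries, although vehicle itself spread widely. The rise was 0.43 ± 0.11, 0.53 ± 0.10, 0.48 ± 0.09 and 0.55 ± 0.09, with adjusted p of 0.00237, 0.000385, 0.00032 and 3.7e-05. At lower doses PLIN2 was called with medium-dose Samul-tang and Sibjeondaebo-tang and with low-dose Sagunja-tang and Sibjeondaebo-tang. Each of these 4 calls was lost without vehicle replicate 3, the lowest vehicle library, with adjusted p of 0.0573, 0.356, 0.288 and 0.211. Each was also lost when only the groups compared entered the fit (adjusted p = 0.069, 0.134, 0.161 and 0.103). The medium-dose Sibjeondaebo-tang call was lost without any 1 of its own libraries (0.0615 to 0.131) and with DESeq2 (0.0516). The low-dose Sibjeondaebo-tang call was lost without its own replicate 1 (0.0993) or 3 (0.0733).

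ANGPTL4 encodes a secreted inhibitor of lipoprotein lipase that PPARs and low oxygen raise in many tissues (ENSG00000167772, chromosome 19, 8363289 to 8374373). Its counts were 4 and 4 with high-dose Sagunja-tang, 4, 6 and 7 for Palmul-tang, 4, 7 and 7 for Sibjeondaebo-tang and 6 and 10 for Samul-tang, against 3, 2 and 3 in vehicle. In the low- and medium-dose libraries they lay between 0 and 6. A level of 3 counts per library was set as the floor, and the vehicle counts were at or under it, so no fold change is given.

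PDK4 encodes a kinase that switches off pyruvate dehydrogenase and so favours fatty acids over glucose as fuel (ENSG00000004799, chromosome 7, 95583499 to 95596491). It was at 10.7 and 10.9 CPM with high-dose Samul-tang, at 9.14, 9.37 and 10.6 with Palmul-tang, at 10.3, 9.71 and 11.1 with Sibjeondaebo-tang and at 7.73 and 8.18 with Sagunja-tang, against 5.95, 6.18 and 6.38 CPM in vehicle. The groups did not overlap. The rise was 1.75-fold for Samul-tang (0.81 ± 0.08, adjusted p = 5.39e-08), 1.58-fold for Palmul-tang (0.66 ± 0.08, adjusted p = 3.07e-07), 1.68-fold for Sibjeondaebo-tang (0.75 ± 0.08, adjusted p = 2.21e-08) and 1.29-fold for Sagunja-tang (0.37 ± 0.09, adjusted p = 0.00148). At the low and medium doses PDK4 differed from vehicle by -0.02 to 0.21 and was not called.

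**Figure D2:**
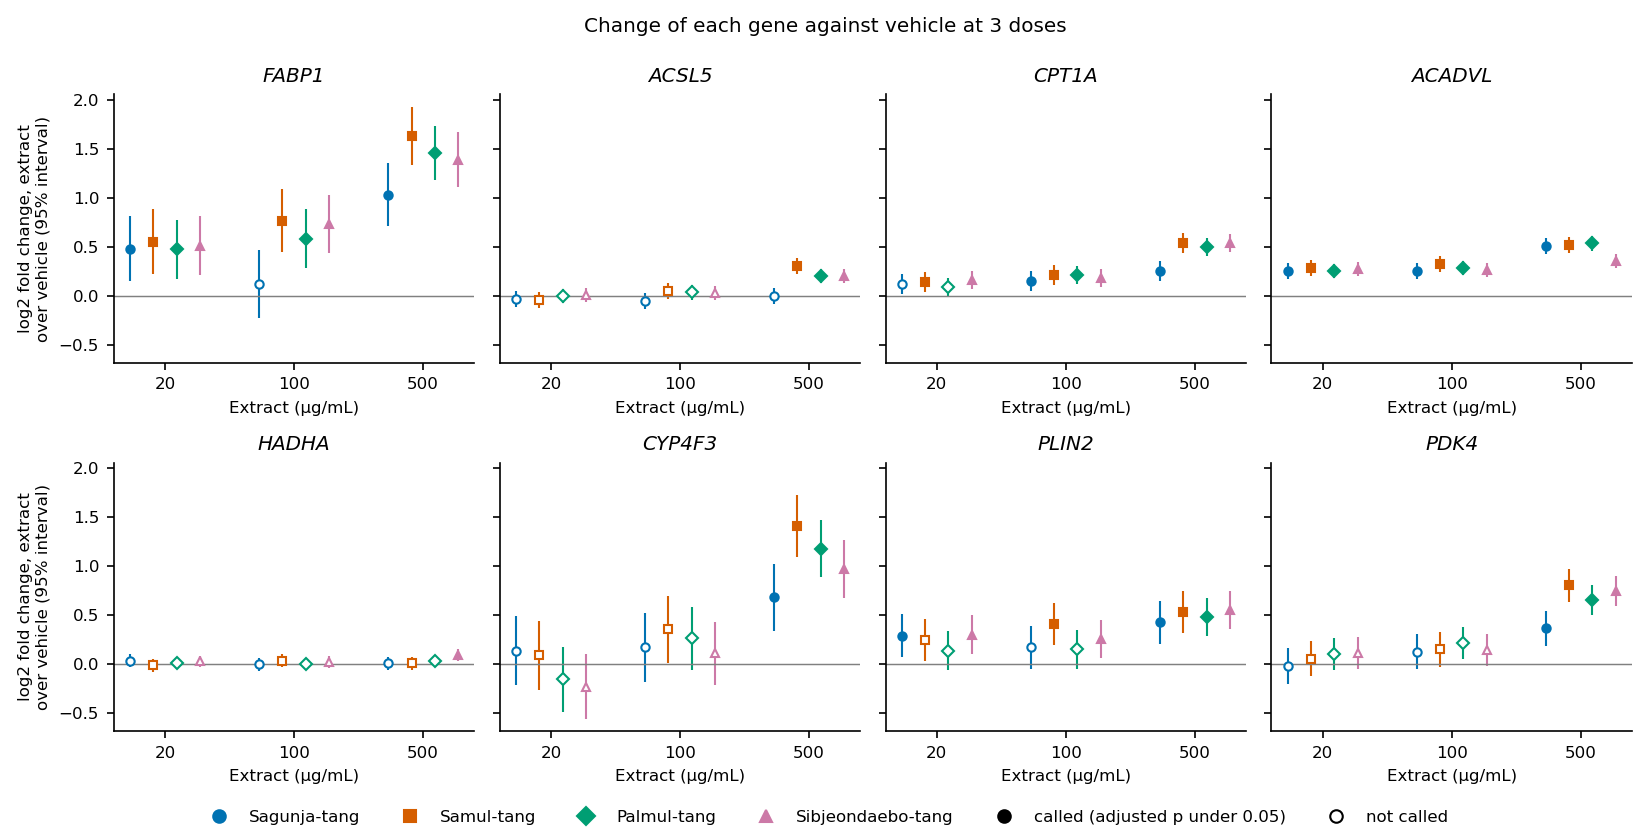
Log2 fold change of each tested gene over vehicle (y axis, with 95% intervals) at 3 doses of each formula (x axis, µg/mL); filled symbols are called at an adjusted p under 0.05. CYP4F3, PDK4 and ACSL5 are called at 500 µg/mL alone, whereas ACADVL is called at all doses.

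At the medium dose, 2 of 8 genes were called higher with Sagunja-tang (8.4% of all genes tested were called higher), 3 with Palmul-tang (10.3%), 4 with Samul-tang (10.9%) and 4 with Sibjeondaebo-tang (14%). At the low dose, 3 were called with Sagunja-tang (11.1%), 2 with Palmul-tang (10.6%), 3 with Samul-tang (8.89%) and 4 with Sibjeondaebo-tang (11.1%). The called genes at these doses were FABP1, CPT1A, PLIN2 and ACADVL.

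Between the high and the low dose of the same formula, where no vehicle library enters and the sample codes are of 1 type, the highest changes were again those of CYP4F3, FABP1 and PDK4. With Samul-tang 6 of 8 were called higher (4.1% of all genes tested), with Palmul-tang 7 (7.66%) and with Sibjeondaebo-tang 6 (15.5%), against 3 with Sagunja-tang (3.33%). CYP4F3 rose by 1.32 ± 0.16, 1.33 ± 0.14 and 1.20 ± 0.14 with Samul-tang, Palmul-tang and Sibjeondaebo-tang (adjusted p = 2.67e-06, 9.52e-08 and 2.97e-07). FABP1 rose by 1.08 ± 0.15, 0.99 ± 0.12 and 0.88 ± 0.12, PDK4 by 0.75 ± 0.09, 0.55 ± 0.07 and 0.63 ± 0.07, and CPT1A by 0.40 ± 0.05, 0.41 ± 0.04 and 0.37 ± 0.04 with these formulas. The carrier, the kinase, the carnitine shuttle enzyme and the P450 thus rose together between 20 and 500 µg/mL with these formulas.

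ACSL5 rose between those doses by 0.35 ± 0.04, 0.21 ± 0.04 and 0.19 ± 0.04 with Samul-tang, Palmul-tang and Sibjeondaebo-tang. ACADVL rose by 0.28 ± 0.03 with Palmul-tang, 0.26 ± 0.04 with Sagunja-tang and 0.24 ± 0.04 with Samul-tang, and with Sibjeondaebo-tang its change of 0.08 ± 0.03 was not called (adjusted p = 0.101). PLIN2 rose by 0.34 ± 0.09 with Palmul-tang (adjusted p = 0.0114) and 0.25 ± 0.09 with Sibjeondaebo-tang (adjusted p = 0.0339). The Palmul-tang call of PLIN2 was lost without replicate 1 of its high dose (adjusted p = 0.102) or of its low dose (adjusted p = 0.0542), and the Sibjeondaebo-tang call without replicate 2 of its low dose (adjusted p = 0.183), without replicate 3 of it (0.0645), or without high-dose replicate 2 (0.125) or 3 (0.0927). For HADHA the high dose differed from the low dose by -0.02 to 0.07 with no call. With scaling without mitochondrially encoded genes, HADHA (0.08, adjusted p = 0.0321) and ACADVL (0.09, adjusted p = 0.0467) were called higher between doses of Sibjeondaebo-tang.

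The Sagunja-tang rise between doses was less secure. FABP1 (0.55 ± 0.16, adjusted p = 0.0349), PDK4 (0.38 ± 0.09, adjusted p = 0.0131) and ACADVL (adjusted p = 0.000518) were called, and none of the 3 was when only these 4 libraries entered the fit (adjusted p = 0.57 for each, with 0 of all genes called). The FABP1 call was also lost without high-dose replicate 2 (adjusted p = 0.508), without low-dose replicate 3 (adjusted p = 0.332) and with the length trend removed (adjusted p = 0.0518). The PDK4 call was lost without replicate 2 of the high dose (adjusted p = 0.0779) or of the low dose (adjusted p = 0.146), while CYP4F3 (0.54 ± 0.18, adjusted p = 0.0569) was called without high-dose replicate 3 (adjusted p = 0.0164).

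**Figure D3:**
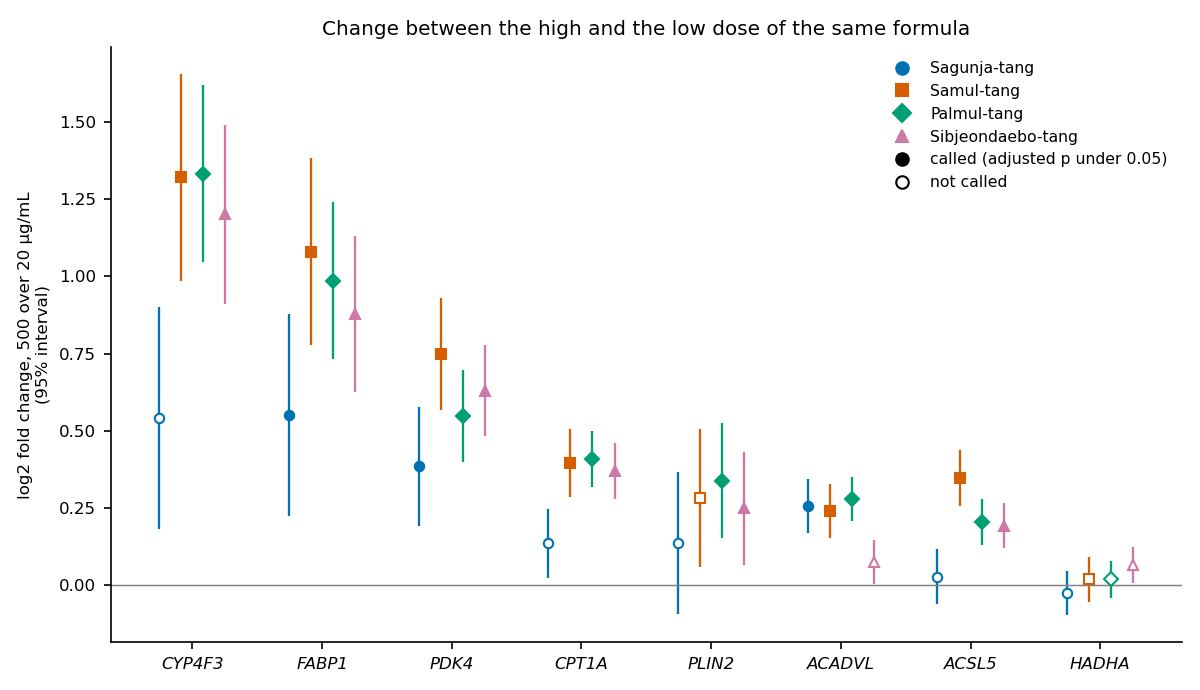
Log2 fold change between 500 and 20 µg/mL of the same formula (y axis, with 95% intervals) for the 8 tested genes; filled symbols are called. CYP4F3, FABP1 and PDK4 have the highest values with every formula, and HADHA lies near 0.

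Samul-tang and Sagunja-tang were compared at the high dose. FABP1 was 0.60 ± 0.15 higher with Samul-tang (adjusted p = 0.0181), ACSL5 0.31 ± 0.04 (adjusted p = 0.000131), CPT1A 0.28 ± 0.05 (adjusted p = 0.00369), CYP4F3 0.73 ± 0.16 (adjusted p = 0.00975) and PDK4 0.44 ± 0.09 (adjusted p = 0.00596). These 5 of 8 genes were called where 5.47% of all genes were. ACADVL (0.01, 95% interval -0.08 to 0.10), HADHA (0.00, -0.07 to 0.07) and PLIN2 (0.10, -0.12 to 0.33) were not called. With only these 4 libraries in the fit no gene of the 8 was called and 2 genes of all were, DESeq2 called 3 of the 6 genes to which it gave an adjusted p (ACSL5, CPT1A and PDK4, with no value for FABP1 and CYP4F3), and 2 to 4 were called with 1 library left out: without either Samul-tang library 2, and without Sagunja-tang replicate 2 or 3, 3 and 4.

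The other formulas at the high dose were closer to each other. Sample codes of Palmul-tang begin differently from those of Sagunja-tang and Samul-tang, so code and formula cannot be told apart in comparisons between them. Palmul-tang stood above Sagunja-tang for CPT1A (0.25 ± 0.05, adjusted p = 0.0101) and ACSL5 (0.21 ± 0.04, adjusted p = 0.00723), 2 of 8 genes where 1.82% of all genes were called. Without Sagunja-tang replicate 2 neither was called (adjusted p = 0.208 and 0.242), without Palmul-tang replicate 3 CPT1A was not (adjusted p = 0.0644), and with only the groups compared neither was (adjusted p = 0.518 for both). Between Palmul-tang and Samul-tang 0 of 8 genes were called by edgeR, where 0.138% of all genes were, and 0 of the 4 with an adjusted p by DESeq2. At an unadjusted p under 0.05 in edgeR were 1 of the 8 (ACSL5) and 1748 of all 17432 genes tested. The 95% interval for FABP1 ran from -0.43 to 0.08 and for ACSL5 from -0.18 to -0.02. Between Sibjeondaebo-tang and Palmul-tang 1 of 8 was called, where 3.87% of all genes were: ACADVL was at 183, 188 and 184 CPM with Sibjeondaebo-tang, all below the 214, 205 and 211 CPM with Palmul-tang (-0.18 ± 0.03, adjusted p = 0.00112). The intervals for FABP1 (-0.30 to 0.17), CPT1A (-0.06 to 0.12), PDK4 (-0.05 to 0.23) and ACSL5 (-0.08 to 0.07) included 0 in that comparison.

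Whether the change between the low and high dose differed between formulas was tested directly. For ACSL5 it was 0.32 ± 0.06 larger with Samul-tang than with Sagunja-tang (adjusted p = 0.0263), 1 of 8 genes where 0.138% of all genes were called. For ACADVL it was lower with Sibjeondaebo-tang than with Palmul-tang (-0.20 ± 0.05, adjusted p = 0.0272), 1 of 8 where 1.45% were called. Between Palmul-tang and Samul-tang 0 of 8 genes and 0% of all genes were called by edgeR, with 691 of all genes at an unadjusted p under 0.05 and 4 called by DESeq2. For FABP1, CYP4F3, PDK4 and CPT1A the dose change was 0.53 ± 0.22, 0.78 ± 0.24, 0.36 ± 0.13 and 0.26 ± 0.08 larger with Samul-tang than with Sagunja-tang, with adjusted p of 0.39, 0.24, 0.309 and 0.216, so that no difference in dose change was shown for these 4.

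The 8 genes did not all follow 1 profile over the 13 group means. Pearson's r of mean log2 CPM with FABP1 was 0.95 for CPT1A, 0.93 for PDK4, 0.91 for CYP4F3, 0.91 for PLIN2, 0.89 for ACSL5, 0.86 for ACADVL and 0.47 for HADHA. The 5 genes outside the 9 with the profile most like FABP1, among the 10977 whose mean log2 CPM was 2 or more, were ABCB6 (0.98), LPAR2 (0.98), SLC45A3 (0.97), AMIGO2 (0.96) and TXNRD1 (0.96). These coefficients are descriptions over group means that share doses and libraries, and the gene at rank 100 still had 0.92.

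Beyond the 9 genes, a list of 99 genes of PPAR signalling and fatty acid metabolism was examined, of which 83 passed the filter. At the high dose against vehicle 31 of them were called higher and 14 lower with Sagunja-tang, 30 and 9 with Samul-tang, 25 and 9 with Palmul-tang and 36 and 13 with Sibjeondaebo-tang. Over all genes tested the shares called higher and lower were 18.7 and 18% with Sagunja-tang, 15 and 12.5% with Samul-tang, 17.3 and 14.8% with Palmul-tang and 20.5 and 19.1% with Sibjeondaebo-tang. The median log2 fold change of the list was 0.09, 0.12, 0.10 and 0.13 in that order. Without replicate 2 of high-dose Sagunja-tang 17 were called higher and 7 lower with that formula, and with only the groups compared 12 and 3. Without replicate 2 of high-dose Samul-tang 15 were called higher and 4 lower. Without vehicle replicate 3 the number called lower was 9 with Sagunja-tang, 5 with Samul-tang and 7 with Sibjeondaebo-tang.

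**Figure D4:**
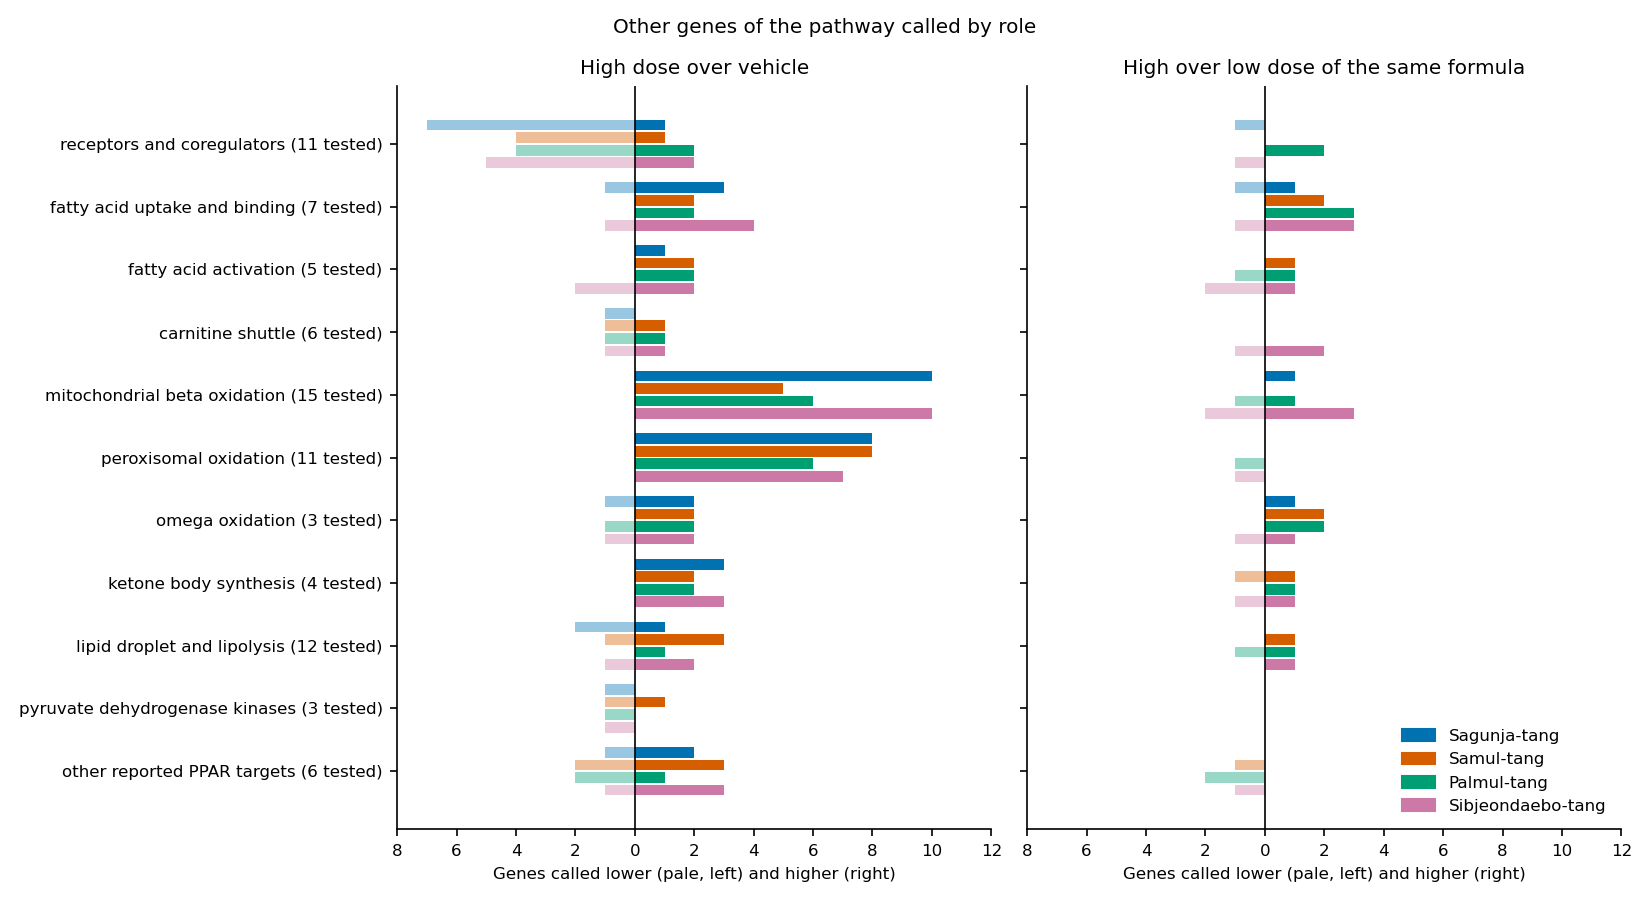
Number of the other pathway genes called higher (solid bars, to the right) and lower (pale bars, to the left) in each role, for the high dose over vehicle (left panel) and for the high over the low dose (right panel). Mitochondrial and peroxisomal oxidation genes are called higher and none lower against vehicle, and few genes of these roles are called between doses.

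Genes of mitochondrial beta oxidation and of peroxisomal oxidation rose against vehicle without any called lower. Of the 15 tested genes of mitochondrial beta oxidation, 10 rose with high-dose Sagunja-tang, 6 with Palmul-tang, 5 with Samul-tang and 10 with Sibjeondaebo-tang. The shares of all genes tested called higher were 18.7, 17.3, 15 and 20.5% in the same order. ECHS1, the enoyl-CoA hydratase, was at 156 ± 34.4, 125 ± 9.33, 131 ± 7.07 and 143 ± 10.5 CPM in that order of formulas (SD), against 95.1 ± 11.5 CPM in vehicle. ETFB and ETFA, the subunits of the flavoprotein that takes electrons from acyl-CoA dehydrogenases, rose by 0.39 to 0.68 and 0.37 to 0.52. ACADS, the short-chain acyl-CoA dehydrogenase, rose by 0.39 to 0.65, and HADH, which oxidizes hydroxyacyl-CoA, by 0.18 to 0.31.

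Of the 11 peroxisomal genes, 8 rose with Sagunja-tang, 6 with Palmul-tang, 8 with Samul-tang and 7 with Sibjeondaebo-tang at the high dose. Among all genes tested 18.7, 17.3, 15 and 20.5% were called higher in the same order. ACAA1, the peroxisomal thiolase, rose by 0.38 to 0.46. EHHADH, the peroxisomal bifunctional enzyme and a classic PPAR alpha target in rodent liver, was at 11.9 ± 0.0388 CPM with Samul-tang, 9.75 ± 0.369 with Palmul-tang, 9.83 ± 0.864 with Sibjeondaebo-tang and 9.89 ± 0.187 with Sagunja-tang, against 7.88 ± 0.595 CPM in vehicle. ABCD3, a peroxisomal fatty acid transporter, HSD17B4, the other bifunctional enzyme, and PEX11A, which takes part in peroxisome division, rose with all 4 formulas by 0.13 to 0.26, 0.15 to 0.19 and 0.25 to 0.32.

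Many of these oxidation genes were called higher than vehicle already at the low dose, and none lower. Of the 15 mitochondrial and the 11 peroxisomal genes, 9 and 6 were with low-dose Sagunja-tang (11.1% of all genes), 7 and 7 with Palmul-tang (10.6%), 8 and 5 with Samul-tang (8.89%) and 11 and 6 with Sibjeondaebo-tang (11.1%). ECHS1 was 0.40 to 0.46 above vehicle at the low dose of the 4 formulas and ACAA1 0.29 to 0.36, all called. Low-dose counts of the whole list moved with single libraries of vehicle and of extracts. Without vehicle replicate 3 the number called higher fell from 26 to 16 with Sibjeondaebo-tang and from 21 to 14 with Palmul-tang. It fell from 22 to 11 with Samul-tang and from 22 to 17 with Sagunja-tang. Without vehicle replicate 1 it was 23, 24, 20 and 23 in that order. Without low-dose replicate 3 of Sibjeondaebo-tang it was 18 with that formula, and without low-dose replicate 2 of Palmul-tang 16. Leaving out low-dose replicate 2 of Sagunja-tang or of Samul-tang left 1 library in the group. The number with that formula then fell further than without any vehicle library. These fits were not split by role. Between the high and low dose 0 of the 11 peroxisomal genes were called higher with any formula, and of the 15 mitochondrial genes 1 was with Sagunja-tang, 1 with Palmul-tang, 0 with Samul-tang and 3 with Sibjeondaebo-tang. Over the whole list 3 genes were called higher and 2 lower between doses with Sagunja-tang, 7 and 2 with Samul-tang, 11 and 6 with Palmul-tang and 12 and 11 with Sibjeondaebo-tang, while the shares of all genes were 3.33 and 3.86%, 4.1 and 3.43%, 7.66 and 6.75%, and 15.5 and 14.3%. These counts moved with single libraries. For Sagunja-tang they were 11 higher and 9 lower without high-dose replicate 3, 1 and 0 without replicate 2 of either dose, 2 and 0 without low-dose replicate 3, and 0 and 0 with only the groups compared. For Samul-tang 3 or 4 were called higher without any 1 of its 4 libraries, and 1 lower without low-dose replicate 3. For Palmul-tang 6 were called higher without high-dose replicate 1, and 2 and 3 lower without high-dose replicate 2 and low-dose replicate 1, and for Sibjeondaebo-tang 7 lower without high-dose replicate 2 or 3 or low-dose replicate 3. Against vehicle, all 12 comparisons of these oxidation genes use the same 3 libraries, and their sample code and treatment cannot be told apart.

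**Figure D5:**
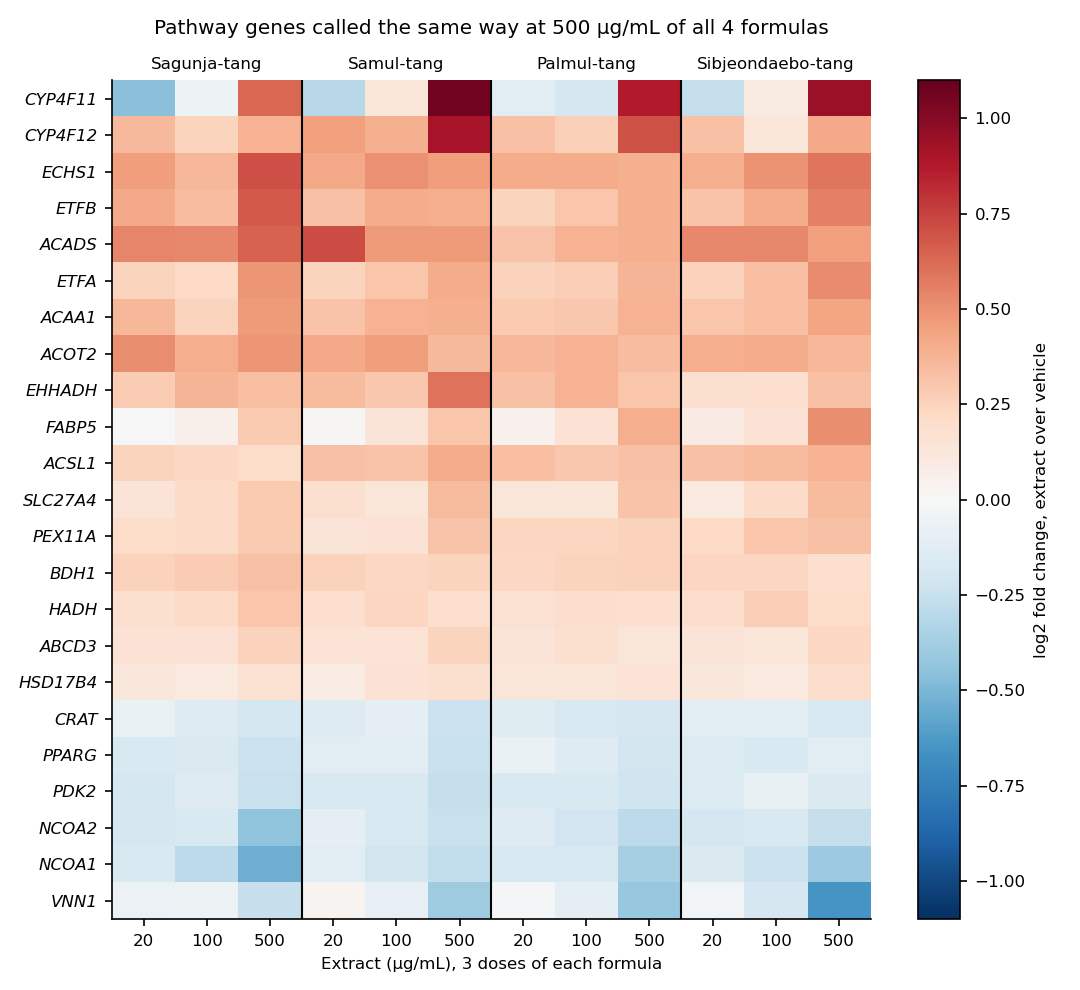
Log2 fold change over vehicle (color) at 20, 100 and 500 µg/mL of each formula (columns) for 23 pathway genes called the same way at the high dose of all 4 formulas (rows). CYP4F11, FABP5 and VNN1 change mainly at 500 µg/mL, whereas ECHS1, ACADS, ACAA1 and ACOT2 have similar values at all doses.

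Some genes of the list rose between doses as FABP1 did. Only such genes are named in this paragraph, although others of the list were called lower. The counts of the whole list given above were near the shares of all genes with Sagunja-tang and with Sibjeondaebo-tang. CYP4F11 rose between the low and high dose with all 4 formulas, by 1.09 ± 0.21 with Sagunja-tang, 1.00 ± 0.16 with Palmul-tang, 1.37 ± 0.20 with Samul-tang and 1.21 ± 0.16 with Sibjeondaebo-tang. FABP5, an epidermal-type fatty acid binding protein, rose by 0.28 to 0.42 between doses with all 4, and ACSL3 and SLC27A2, which activate fatty acids, rose with Samul-tang, Palmul-tang and Sibjeondaebo-tang by 0.16 to 0.17 and 0.16 to 0.20. SLC27A2 was named here after its values were seen. LIPE, the hormone-sensitive lipase, was chosen in the same way and rose with the same 3 formulas by 0.21 to 0.24.

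Uptake, activation and carnitine shuttle genes were mixed at the high dose against vehicle. With Sibjeondaebo-tang 4 of 7 uptake genes were called higher and 1 lower, and 2 of 5 activation genes higher and 2 lower. Of the 6 shuttle genes 1 was called higher and 1 lower. Of all 17432 genes tested 3581 were called higher and 3323 lower in that comparison, so the shuttle counts did not stand apart. The fatty acid transport protein SLC27A4 rose by 0.29 to 0.35 with all 4 formulas, ACSL1, an acyl-CoA synthetase, by 0.20 to 0.41, ACOT2, a mitochondrial acyl-CoA thioesterase, by 0.34 to 0.49, and BDH1, which interconverts ketone bodies, with all 4. SLC25A20, the carnitine-acylcarnitine carrier that follows CPT1A in the shuttle, rose by 0.32 ± 0.06 with Sibjeondaebo-tang, 0.24 ± 0.06 with Palmul-tang and 0.20 ± 0.07 with Samul-tang, and its change with Sagunja-tang was 0.08 ± 0.07 (adjusted p = 0.426). ACOT1, another thioesterase with near-identical neighbours, rose by 0.73 ± 0.25, 0.85 ± 0.24 and 1.04 ± 0.22 with Sagunja-tang, Samul-tang and Sibjeondaebo-tang. It was not among the genes called with all 4 formulas, and its level in vehicle was low, at 0.783 CPM. PLIN4, a lipid droplet protein, rose by 0.24 ± 0.07 with Sibjeondaebo-tang.

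Not every gene of the pathway rose. VNN1, a pantetheinase and PPAR alpha target in mouse liver, was at 11.9 ± 0.562 CPM with high-dose Sibjeondaebo-tang, 14.1 ± 0.473 with Palmul-tang, 14.3 ± 0.914 with Samul-tang and 15.8 ± 1.41 with Sagunja-tang (SD), against 18.7 ± 0.943 CPM in vehicle. It fell by 0.65, 0.41, 0.39 and 0.25 in that order, with adjusted p of 4.44e-08, 3.6e-05, 0.000337 and 0.00975. CRAT, the carnitine acetyltransferase, and PDK2, a pyruvate dehydrogenase kinase like PDK4, were called lower at the high dose of all 4 formulas. PDK1 was -0.12 ± 0.06 with Sibjeondaebo-tang (adjusted p = 0.0736), and CYP4V2, a fatty acid omega-hydroxylase, and PNPLA2, the adipose triglyceride lipase, fell by 0.35 ± 0.08 and 0.20 ± 0.05 with that formula.

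The receptors themselves changed little or fell. PPARG was at 92.7 ± 4.78 CPM with high-dose Sagunja-tang, 94.8 ± 2.21 with Palmul-tang, 92.1 ± 7.70 with Samul-tang and 101 ± 3.14 with Sibjeondaebo-tang (SD), against 109 ± 6.13 CPM in vehicle, and was called lower with each (adjusted p = 0.000742, 0.00118, 0.000795 and 0.0472). PPARA stood at 60.0 ± 1.86, 56.2 ± 1.94 and 56.3 ± 0.988 CPM with Samul-tang, Palmul-tang and Sibjeondaebo-tang, against 58.0 ± 2.51 CPM in vehicle, and was not called (adjusted p = 0.661, 0.654 and 0.65). With Sagunja-tang PPARA was called lower (-0.23 ± 0.07, adjusted p = 0.0186), and its 2 libraries stood far apart, at 41.0 and 57.8 CPM.

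PPARD was at 31.2 to 33.5 CPM in the 4 high-dose groups and 33.5 ± 2.72 CPM in vehicle and was not called. RXRA, the partner receptor, rose by 0.13 ± 0.05 with Samul-tang (adjusted p = 0.0464), 0.16 ± 0.04 with Palmul-tang (adjusted p = 0.00741) and 0.22 ± 0.04 with Sibjeondaebo-tang (adjusted p = 0.000221), and its change with Sagunja-tang was 0.12 ± 0.05 (adjusted p = 0.055). The coregulators NCOA1 and NCOA2 were called lower at the high dose of all 4 formulas. NCOA1, a coactivator, was at 17.8 ± 3.28 CPM with Sagunja-tang, 20.2 ± 0.475 with Palmul-tang, 21.5 ± 1.86 with Samul-tang and 19.7 ± 1.47 with Sibjeondaebo-tang, against 26.1 ± 2.80 CPM in vehicle. These are long transcripts, and in the comparison of high-dose Sagunja-tang with vehicle longer genes tended to be lower (Spearman -0.16 across 17312 genes). The coefficient was -0.10 with Palmul-tang, -0.06 with Sibjeondaebo-tang and -0.002 with Samul-tang. With the length trend removed 31 pathway genes were called higher and 12 lower with high-dose Sagunja-tang. Whether length plays a part in the fall of NCOA1 and NCOA2 was not tested.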

How the data were processed

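RNA of HT29 cells was sequenced from directional libraries as 100 bp paired reads, per the labels' protocols. The tools and build named in the submitters' processing notes are STAR 2.7.3a, RSEM 1.3.3, Trim Galore 0.6.5, FastQC 0.11.9 and hg38; the annotation release is not given in the sources used here. The deposited values are expected counts per gene, of which 9.45% are not whole, and they were rounded. The table has 273 columns, of which 33 map to these samples by name and 240 were not used. The series text gives another DMSO percentage than the sample labels, and mentions wortmannin, LY294002 and doses set by inhibitory concentration, which were not analysed here.

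The tests used edgeR 4.0.16 under R 4.3.3: filterByExpr with a minimum count of 10, TMM, 1 coefficient for each of 13 groups over all 33 libraries (20 residual and 7.00 prior degrees of freedom), the quasi-likelihood F test and p-values adjusted by Benjamini and Hochberg over all genes, for 23 comparisons. The SE is the log2 fold change divided by the square root of F. The biological coefficient of variation was 0.0489. The fit was tested on simulated data. Symbols, positions and exon lengths come from GENCODE 29 (57055 identifiers matched) and promoters from RefSeq.

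The 9 genes, the pathway list, the marker lists and the tests were chosen with earlier results of these data known. Named are the 9 genes, pathway genes called the same way at the high dose of all 4 formulas, the 2 of each role with the smallest p for high-dose Sibjeondaebo-tang, PPARA, PPARD, PPARG, RXRA, 3 paralogs of CYP4F3 and the 5 genes most like FABP1, and SLC27A2 and LIPE after their values were seen; 2 pathway genes that meet this rule are not reported here, though counts of genes include them. Alternatives were RLE and upper-quartile normalization, no filter, DESeq2 1.42.0, only the groups compared, the replicate number as a block, leaving out each library in turn (where 1 library remained, its spread was taken from the other groups) and, added after seeing the data, scaling without mitochondrially encoded genes and removal of a loess trend on exon length.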

Additional observations from a re-analysis of the deposited data

Results flagged for a closer look

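The rise of ACSL5, the intestinal acyl-CoA synthetase gene, between the low and the high dose differed between formulas by the test of that difference: it was 0.32 ± 0.06 (log2) larger with Samul-tang than with Sagunja-tang, with an adjusted p of 0.0263 and 2 libraries in each of the 4 groups. The rise was 0.35 ± 0.04 with Samul-tang and 0.03 ± 0.04 with Sagunja-tang. The call was lost without replicate 2 of high-dose Sagunja-tang (adjusted p = 0.218), without replicate 3 of high-dose Samul-tang (adjusted p = 0.213) and without any of the 4 low-dose libraries (adjusted p = 0.0911 to 0.279).

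The change of ACADVL, the very-long-chain acyl-CoA dehydrogenase gene, between doses differed between Sibjeondaebo-tang and Palmul-tang by the same kind of test (-0.20 ± 0.05, adjusted p = 0.0272). It was 0.08 ± 0.03 with Sibjeondaebo-tang and 0.28 ± 0.03 with Palmul-tang, 3 libraries in each group. With 1 library of these groups left out the adjusted p lay between 0.0291 and 0.098, and the call was lost in 8 of 12 cases.

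Groups here hold 2 or 3 libraries, too few to test any single library as an outlier.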

How the results depend on the processing

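No value of the 8 genes that was called changed its direction. Of 2547 fold changes under an alternative, 2433 kept their side of the threshold, 96 of these being uncalled values that changed sign, 105 lost the call and 9 gained it. The number of the 8 genes called moved by over 1.5 times in 31 fits without 1 library (in 105 it did not) and in 8 of 23 with only the groups compared. With only the groups compared it was 3 for high-dose Sagunja-tang against vehicle, 1 for its medium dose, 1 for its low dose and 1 for low-dose Palmul-tang, and 0 for Sagunja-tang between doses, for Samul-tang or Palmul-tang against high-dose Sagunja-tang and for the dose change of Samul-tang against Sagunja-tang. DESeq2 gave 3 for Samul-tang against Sagunja-tang, where it left FABP1 and CYP4F3 without an adjusted p and called the same 3 of the other 6 genes as edgeR, and keeping low counts or scaling without mitochondrially encoded genes gave 0 for the dose change of Sibjeondaebo-tang against Palmul-tang. The cause of the moves was not tested; fits on few libraries have fewer degrees of freedom by construction.

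With 1 library left out the number called was 1 to 2 for medium-dose Sagunja-tang and 2 to 4 for medium-dose Samul-tang against vehicle, and 1 to 2 for the low dose of Sagunja-tang, Samul-tang and Palmul-tang. It was 1 to 4 for Sagunja-tang between doses, 2 to 4 for Samul-tang and 0 to 3 for Palmul-tang against Sagunja-tang, and 0 to 2 and 0 to 1 for the dose changes of Samul-tang against Sagunja-tang and of Sibjeondaebo-tang against Palmul-tang. At the high dose against vehicle it stayed at 8 with Sibjeondaebo-tang, 7 with Palmul-tang, 7 with Samul-tang and 5 to 6 with Sagunja-tang.

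Over all genes tested, the count called for high-dose Sagunja-tang against vehicle was 6391, and 2182 with only the groups compared. For Samul-tang against Sagunja-tang it was 953, with 2 from only the groups compared, 507 with the length trend removed, 1746 with low counts kept and 64 to 4092 with 1 library left out. Same-numbered libraries of different groups correlated in their deviations by -0.34 to 0.56 over 177 pairs, 81 of them over 0.1, so the numbers were not taken to pair them. Among Sagunja-tang and Samul-tang groups the median was 0.11 (lowest -0.01), against -0.11 for different numbers (its mirror image, with 2 libraries a group), and among Palmul-tang and Sibjeondaebo-tang groups 0.14 (lowest -0.34), against -0.07, a hint from the data and not from the design. With the replicate block 4 of the 8 genes, CYP4F3 added (adjusted p = 0.04), were called for Sagunja-tang between doses and 2, without CPT1A (adjusted p = 0.051), for low-dose Samul-tang, the count in every other comparison was that without the block, and 1473 genes in all were called for Samul-tang against Sagunja-tang. FABP1 and CYP4F3 had 38 to 228 counts a library, which limits the precision of their small low-dose differences, and ANGPTL4 was too low to test.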
